A study of Homo sapiens with 6 samples.

Results

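The SLC25 carriers were compared between persister and resistant cells derived from the leukemia line SET-2, labelled OTX P/R, and the parental SET-2 line. The members were the rows of the authors' expression table whose symbol is SLC25A followed by a number, 49 rows of 19785, which stand for 48 genes because SLC25A6 is listed on 2 rows. The 6 libraries were made from total RNA of untreated cultures in exponential growth, 3 of OTX P/R cells and 3 of parental cells, in RPMI medium with fetal bovine serum, and no drug was present in either group. SET-2 is an established megakaryoblastic leukemia line, described in the labels as secondary acute myeloid leukemia, and the labels do not spell out OTX, which is taken to be birabresib, an inhibitor of BET proteins. The labels do not say how many times resistant cells were derived, so differences that came with resistance and others that arose in the derived cells cannot be told apart. The libraries are described as biologic replicates with no further detail, so p-values measure the spread between these cultures.

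SLC25 proteins form the largest family of solute carriers of the inner mitochondrial membrane, which is otherwise impermeable to most metabolites. They exchange nucleotides, phosphate, amino acids, carboxylates, cofactors and iron between the cytosol and the matrix. In blood-forming cells several of them feed heme synthesis: the mitoferrins bring iron to the matrix, and SLC25A38 is known for its part in the supply of glycine.

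Values are linear normalized abundances of each gene. The table is quantile-normalized, so every library has nearly the same total of values, from 419375 to 419437. The depth of sequencing is unknown, and an overall gain or loss of mitochondrial transcripts relative to the rest of the cell would be kept only in ranks. Libraries of the same group correlated at 0.986 to 0.988, and libraries of different groups at 0.948 to 0.949, across tested genes on the log2 scale. The 7 markers fixed for megakaryocytic blasts were detected in every library, with summed abundances of 549 to 555 in OTX P/R libraries and 585 to 606 in parental libraries. Within that list members moved in opposite directions: ITGB3, CD34 and GP9 were higher in OTX P/R cells (log2 fold changes 1.92, 0.94 and 0.54) and KIT and ITGA2B were lower (-0.95 and -0.64), all 5 called, while GATA1 and CD33 did not pass. Summed markers of T and NK cells were 29.3 to 31.6 in OTX P/R libraries and 64.5 to 71.3 in parental libraries, mostly NKG7 with some CD3D, while CD3E, CD3G and NCAM1 were near 0. Of the B cell markers MS4A1 was listed at 0 in all libraries, and CD79A was at 6.45 to 7.17 in OTX P/R libraries and 8.45 to 9.16 in parental libraries. Both monocyte markers were near 0, and the 3 epithelial markers, mostly KRT18, summed to 13.8 to 16.0 in OTX P/R libraries and 8.73 to 11.0 in parental libraries. The 4 stromal or endothelial markers, mostly PECAM1, summed to 16.7 to 17.9 in OTX P/R libraries and 7.38 to 8.65 in parental libraries. Of the others, COL1A1 was at 1.86 to 1.99 in OTX P/R libraries and 0.0466 to 0.114 in parental libraries. COL1A2 and VWF were near 0 and lower in OTX P/R libraries. The part of all these markers in the carrier results was not tested.

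Of the 48 carrier genes, 36 had a mean abundance of at least 1 and were tested. In OTX P/R cells 7 were higher, 4 were lower and 25 did not pass, at an adjusted p under 0.05 over all 10741 genes tested with limma. The called share was 30.6% of the tested carriers, beside 36.1% of all tested genes, so the family moved about as often as the table as a whole. The 4 lower carriers became 1 without OTX P/R replicate 1, OTX P/R replicate 3 or parental replicate 2, and 2 without OTX P/R replicate 2. Calls over all tested genes, in either direction, also fell in these fits, from 3879 to 3111, 3143, 3322 and 3029 in that order. By direction, 18.6% of all tested genes were higher and 17.5% were lower. A fold of 1.5 or more on the log2(value + 1) scale was reached by 3 called carriers, SLC25A13 and SLC25A37 upward and SLC25A39 downward, or 8.33% of those tested, beside 14.6% of all tested genes (6.77% higher and 7.84% lower). In these bulk samples, fewer cells of a type and less RNA per cell cannot be told apart. The median log2 fold change was 0.08 over the tested carriers and 0.02 over all tested genes, and the median size of change without its sign was 0.19 and 0.21. For 18 of the 36 tested carriers, 11 above and 7 below, no OTX P/R library lay within the parental range or the reverse, and the same held for 51.6% of all tested genes.

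**Figure D1:**
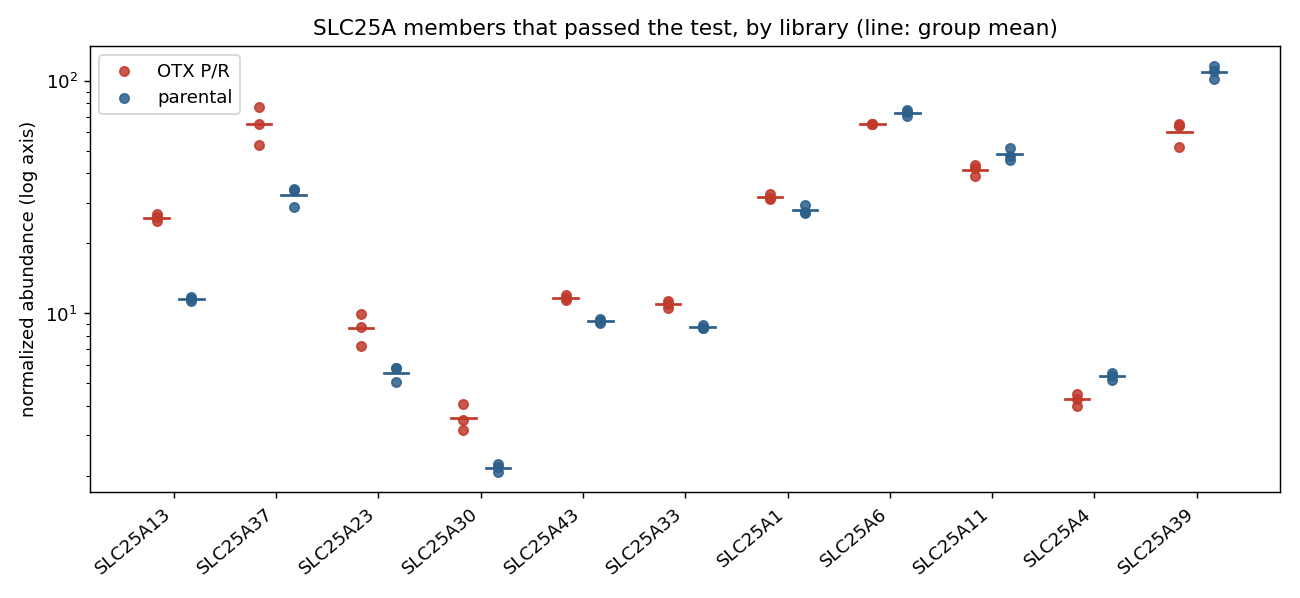
Normalized abundance, on a log axis, of the 11 SLC25A members that passed the test, in each of the 3 OTX P/R libraries (red, left of each pair) and 3 parental libraries (blue), with group means as lines and genes ordered by log2 fold change. SLC25A13 and SLC25A37 stand at about a doubled level in OTX P/R cells, SLC25A39 is lower there, and no gene's groups overlap.

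Promoter sequences are shown for SLC25A13 and SLC25A33, which rose, for SLC25A39, which fell, and for its relative SLC25A40, which did not pass. Each is the 200 bases upstream of the annotated start from RefSeq on GRCh38.p14, read on the gene's strand. The series title names MYC and TCF7L2, so the windows were searched on both strands for CACGTG, the E-box bound by MYC with MAX, for CTTTGAT, bound by TCF and LEF factors, for GATAAG, which GATA factors bind, and for the palindrome of NRF1. Capitals mark a match.
SLC25A13: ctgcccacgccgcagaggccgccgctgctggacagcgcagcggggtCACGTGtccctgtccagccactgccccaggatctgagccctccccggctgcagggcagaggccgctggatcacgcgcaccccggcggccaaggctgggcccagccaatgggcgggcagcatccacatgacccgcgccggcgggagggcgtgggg
SLC25A33: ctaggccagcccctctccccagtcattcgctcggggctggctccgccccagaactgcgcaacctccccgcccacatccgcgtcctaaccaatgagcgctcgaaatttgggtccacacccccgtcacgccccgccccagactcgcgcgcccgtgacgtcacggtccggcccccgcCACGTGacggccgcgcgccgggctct
SLC25A39: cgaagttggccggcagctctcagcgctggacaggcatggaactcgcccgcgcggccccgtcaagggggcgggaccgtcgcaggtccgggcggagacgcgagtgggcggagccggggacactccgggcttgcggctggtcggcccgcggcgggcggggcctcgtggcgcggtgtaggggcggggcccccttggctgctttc
SLC25A40: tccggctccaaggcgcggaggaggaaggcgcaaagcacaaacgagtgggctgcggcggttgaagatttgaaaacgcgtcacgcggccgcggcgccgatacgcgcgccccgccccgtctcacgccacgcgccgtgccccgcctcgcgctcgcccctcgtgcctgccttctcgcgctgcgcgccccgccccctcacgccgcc
These stretches lie at chr7:96322099-96322298 on the minus strand for SLC25A13, chr1:9539265-9539464 on the plus strand for SLC25A33, chr17:44324824-44325023 on the minus strand for SLC25A39 and chr7:87876361-87876560 on the minus strand for SLC25A40. Both SLC25A13 and SLC25A33 hold an E-box, and the stretches of SLC25A39 and SLC25A40 hold none of these letters. G and C made up 75.5%, 72.0%, 77% and 74.5% of the bases in that order.

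Over windows of 250 bases before to 50 after the start, promoters were matched for 30 of the 36 tested carriers. CACGTG was found in 6 of them, or 20.0%, beside 7.43% of 27305 RefSeq promoters of the same length. That larger set was not limited to tested genes, so the shares are not of like sets. The carriers with the E-box were SLC25A13 and SLC25A33, which rose, and SLC25A36, SLC25A38, SLC25A46 and SLC25A51, which did not pass. SLC25A1, SLC25A23 and SLC25A43 also rose and held no E-box, and no promoter was matched for SLC25A37 or SLC25A30, which rose too. The called lower carriers held none. Whether the E-box goes with a rise was not tested. CTTTGAT was found in SLC25A28 alone, or 3.33%, beside 2.64% of all promoters, while GATAAG was in 0 of the 30, beside 6.36%, and the NRF1 palindrome in 0, beside 1.36%. The carrier promoters were rich in G and C, with a median of 70.8% in the 250 bases upstream, beside 58.0% in all promoters. A match is a description of the letters and shows no binding.

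Carriers of amino acids included the largest rise of the family. SLC25A13, or citrin, exchanges mitochondrial aspartate for cytosolic glutamate and is a limb of the malate-aspartate shuttle. Its abundance was 25.9, 25.0 and 26.7 in the OTX P/R libraries, against 11.5, 11.3 and 11.7 in the parental libraries. The groups were far apart and each was tight, with a ratio of means of 2.24 (log2 fold change 1.10 ± 0.05 SE, adjusted p = 3.34e-05). SLC25A12, or aralar, is the other aspartate-glutamate carrier and did not pass, with abundances of 4.66, 8.34 and 8.03 in the OTX P/R libraries, against 8.05, 7.16 and 8.01 in the parental libraries. OTX P/R replicate 1 stood apart from the rest for SLC25A12, and without it the log2 fold change was 0.07 in place of -0.16.

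The other 5 tested amino acid carriers did not pass. SLC25A15, the ornithine carrier of the urea cycle, was at 20.6, 22.3 and 22.6 in the OTX P/R libraries, against 19.5, 15.4 and 18.4 in the parental libraries, every OTX P/R library above every parental one, but the test was missed (adjusted p = 0.0589). Its call appeared without parental replicate 1 (adjusted p = 0.0422). SLC25A29, a carrier of basic amino acids, was spread within both groups, at 21.8, 32.4 and 30.5 in the OTX P/R libraries, against 17.8, 26.7 and 15.1 in the parental libraries, and passed only without parental replicate 2 (log2 fold change 0.73 in place of 0.50, adjusted p = 0.0429). SLC25A22, a glutamate carrier, was at 29.1, 28.4 and 24.7 in OTX P/R cells and 25.8, 25.3 and 23.8 in parental cells (log2 fold change 0.13, 95% interval -0.06 to 0.31). SLC25A38, the glycine carrier of heme synthesis, was at 15.8, 16.7 and 17.7 in OTX P/R cells and 17.6, 17.5 and 16.1 in parental cells, with overlapping groups (log2 fold change -0.03, 95% interval -0.19 to 0.13). SLC25A44, which carries branched-chain amino acids, was at 6.98, 8.32 and 5.87 in OTX P/R cells and 8.44, 9.18 and 4.99 in parental cells, with a wide interval (log2 fold change -0.06, 95% interval -0.61 to 0.49).

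Carriers of tricarboxylates and dicarboxylates moved by small amounts in both directions. SLC25A1 exports citrate, the carbon source of cytosolic acetyl-CoA, and its abundance was 31.1, 32.6 and 31.3 in the OTX P/R libraries, against 27.0, 29.3 and 27.4 in the parental libraries (log2 fold change 0.18 ± 0.05 SE, adjusted p = 0.0401). SLC25A11 exchanges oxoglutarate for malate and is the second membrane limb of the malate-aspartate shuttle. It was at 42.1, 43.3 and 39.0 in the OTX P/R libraries, against 45.8, 47.7 and 51.4 in the parental libraries (log2 fold change -0.22 ± 0.06 SE, adjusted p = 0.0453). Neither call was firm: that of SLC25A1 was lost without any library but parental replicate 2 (adjusted p up to 0.122), and that of SLC25A11 without any but parental replicate 1 (up to 0.121). SLC25A10, the dicarboxylate carrier, was lower in every OTX P/R library, at 16.7, 17.5 and 15.6 in the OTX P/R libraries, against 20.7, 19.8 and 17.6 in the parental libraries, and did not pass (adjusted p = 0.0833), but did without parental replicate 3 (log2 fold change -0.27, adjusted p = 0.0401). SLC25A21, of oxodicarboxylates, was listed near 0 in all libraries and not tested.

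The most abundant members were the carriers that supply ATP synthase. SLC25A5, the adenine nucleotide translocase of dividing cells, led the family with abundances of 354, 363 and 348 in the OTX P/R libraries, against 363, 356 and 345 in the parental libraries. SLC25A3, which brings phosphate into the matrix, followed at 283, 291 and 292 in the OTX P/R libraries, against 242, 295 and 291 in the parental libraries. The groups overlapped for both genes, and neither passed (log2 fold change 0.00, 95% interval -0.10 to 0.10, for SLC25A5; 0.07, 95% interval -0.13 to 0.27, for SLC25A3). Their joint share of the summed abundance of the family was 51.9% ± 0.832 in OTX P/R cells, against 51.8% ± 0.794 in parental cells (SD, n = 3 libraries a group). That sum was 1241 ± 22.3 in OTX P/R cells, against 1217 ± 31.7 in parental cells, a difference smaller than the SD of the parental libraries.

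The other translocases were a little lower in OTX P/R cells. SLC25A4, the isoform typical of heart and muscle, was at 4.30, 4.52 and 3.997 in the OTX P/R libraries, against 5.20, 5.57 and 5.40 in the parental libraries (log2 fold change -0.28 ± 0.06 SE, adjusted p = 0.0188). SLC25A6, a widely expressed isoform in the pseudoautosomal region shared by chromosomes X and Y, is listed once for each copy. The copy with the higher mean was at 65.5, 65.1 and 65.4 in the OTX P/R libraries, against 73.2, 74.7 and 70.8 in the parental libraries (log2 fold change -0.16 ± 0.04 SE, adjusted p = 0.0273). The other copy was at 65.2, 64.6 and 64.8 in OTX P/R cells and 72.6, 64.2 and 70.4 in parental cells, with overlapping groups and an adjusted p of 0.275, so the call depends on which row is read. Reading the other row and summing the rows were choices made after seeing the data, and the sum gave an adjusted p of 0.0497. The SLC25A4 call was lost without OTX P/R replicate 1 or 3 or parental replicate 2 or 3 (adjusted p up to 0.0588), and that of SLC25A6 without any library but parental replicate 3 (up to 0.0826). Shares among the 3 translocases counted SLC25A6 by its row with the higher mean alone, which leaves its other row out of the total. On that count the share of SLC25A5 was 83.6% ± 0.284 in OTX P/R cells, against 81.9% ± 0.309 in parental cells (SD, n = 3 each). That of SLC25A6, by the row with the higher mean, was 15.4% ± 0.325 in OTX P/R cells, against 16.8% ± 0.260 in parental cells. Every OTX P/R library had the larger share of SLC25A5, a difference of under 2 percentage points that was not tested. SLC25A31, the testis isoform, was listed at 0 in all libraries.

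Among the calcium-regulated carriers of ATP-magnesium and phosphate, 1 of 3 tested members passed. SLC25A23 was at 8.71, 7.27 and 9.92 in the OTX P/R libraries, against 5.83, 5.81 and 5.06 in the parental libraries, higher in every OTX P/R library, with a ratio of means of 1.55 (log2 fold change 0.55 ± 0.12 SE, adjusted p = 0.0137). With a pseudocount of 5 its log2 fold change was 0.36, still called. SLC25A24 overlapped between the groups, at 14.6, 15.2 and 16.0 in the OTX P/R libraries, against 15.9, 14.4 and 15.5 in the parental libraries (log2 fold change -0.00, 95% interval -0.15 to 0.15). SLC25A25 was at 7.61, 7.44 and 7.81 in OTX P/R cells and 6.82, 6.52 and 6.88 in parental cells, every OTX P/R library above every parental one, and did not pass (adjusted p = 0.0666). SLC25A41, of the same subgroup, was listed near 0. The pyrimidine nucleotide carriers were SLC25A33 and SLC25A36, which serve mitochondrial DNA and RNA synthesis. SLC25A33 was at 11.0, 11.3 and 10.5 in the OTX P/R libraries, against 8.68, 8.89 and 8.67 in the parental libraries (log2 fold change 0.29 ± 0.05 SE, adjusted p = 0.00671), and its values are uncertain because most of its coding sequence is shared with 1 other annotated gene. SLC25A36 was at 4.99, 7.85 and 12.7 in OTX P/R cells and 9.21, 8.41 and 10.9 in parental cells, scattered in OTX P/R cells, so the interval of its log2 fold change was wide (95% interval -0.94 to 0.51).

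The mitoferrins were 1 that rose and 1 that did not pass. SLC25A37, or mitoferrin-1, brings iron into the matrix and is the main importer of erythroid cells. Its abundance was 53.1, 65.4 and 77.4 in the OTX P/R libraries, against 28.7, 33.9 and 34.2 in the parental libraries. The lowest OTX P/R library stood above the highest parental library, and the ratio of means was 2.03 (log2 fold change 0.98 ± 0.15 SE, adjusted p = 0.00352). The OTX P/R libraries were not tight, and leaving out single libraries gave log2 fold changes of 0.85 to 1.12, all of them called. SLC25A28, or mitoferrin-2, the widely expressed form, overlapped between the groups, at 12.8, 11.5 and 9.88 in the OTX P/R libraries, against 10.4, 13.7 and 11.7 in the parental libraries (log2 fold change -0.06, 95% interval -0.37 to 0.24). The summed abundance of both mitoferrins was 76.7 ± 10.8 in OTX P/R cells, against 44.2 ± 4.45 in parental cells (SD, n = 3 each).

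The glutathione carriers were 1 that fell and 1 that did not pass. SLC25A39 is needed for glutathione uptake into mitochondria and has been linked to heme synthesis. Its mean of 84.7 was the third highest of single rows, above the 2 rows of SLC25A6 (69.1 and 67.0) taken singly but not together. The abundance of SLC25A39 was 63.8, 51.8 and 65.1 in the OTX P/R libraries, against 116, 110.1 and 102 in the parental libraries. Every OTX P/R library was far below every parental library, with a ratio of means of 0.552 (log2 fold change -0.85 ± 0.10 SE, adjusted p = 0.00139). SLC25A40, its close relative, overlapped at a lower level, with 4.69, 4.37 and 4.92 in the OTX P/R libraries, against 4.88, 4.51 and 4.72 in the parental libraries (95% interval -0.17 to 0.15 on the log2 scale). The sum of both was 64.9 ± 7.60 in OTX P/R cells, against 114 ± 7.02 in parental cells (SD, n = 3 each).

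None of the 7 tested cofactor carriers passed. SLC25A42, a coenzyme A carrier, was lower in every OTX P/R library, at 2.09, 1.83 and 2.03 in the OTX P/R libraries, against 2.77, 4.05 and 2.31 in the parental libraries (adjusted p = 0.0903), and passed without parental replicate 3 (log2 fold change -0.55, adjusted p = 0.0449). SLC25A51, which brings NAD into mitochondria, was the most scattered member, at 3.90, 1.35 and 2.94 in the OTX P/R libraries, against 0.791, 0.435 and 3.40 in the parental libraries. Its reads could be split with near-identical copies, so its values are uncertain. SLC25A16, linked to coenzyme A, was at 1.33, 1.29 and 1.90 in OTX P/R cells and 1.15, 1.03 and 1.15 in parental cells, every OTX P/R library above every parental one (adjusted p = 0.143). The groups overlapped for SLC25A32, SLC25A26 and SLC25A17. SLC25A32, of folate and FAD, was at 15.7, 15.3 and 16.3 in OTX P/R cells and 13.7, 14.0 and 15.6 in parental cells (log2 fold change 95% interval -0.04 to 0.28). SLC25A26, of S-adenosylmethionine, was at 5.59, 5.29 and 5.07 in OTX P/R cells and 2.99, 4.71 and 5.96 in parental cells (log2 fold change 95% interval -0.27 to 0.71). SLC25A17, of peroxisomes, was at 15.3, 17.1 and 16.8 in OTX P/R cells and 16.9, 16.99 and 18.2 in parental cells (log2 fold change 95% interval -0.24 to 0.08).

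The remaining tested members were few and mostly low. SLC25A30, related to the uncoupling proteins, was at 3.16, 4.06 and 3.47 in the OTX P/R libraries, against 2.26, 2.08 and 2.19 in the parental libraries, a ratio of means of 1.64 (log2 fold change 0.52 ± 0.09 SE, adjusted p = 0.00615). With a pseudocount of 5 its log2 fold change was 0.25, still called. SLC25A14, an uncoupling protein relative of neurons and other cells, was at 4.23, 5.68 and 5.02 in OTX P/R cells and 3.68, 5.27 and 4.31 in parental cells, with overlapping groups (log2 fold change 0.14, 95% interval -0.20 to 0.48). SLC25A43, of unknown substrate, was at 11.4, 11.99 and 11.7 in the OTX P/R libraries, against 9.09, 9.48 and 9.30 in the parental libraries (log2 fold change 0.30 ± 0.05 SE, adjusted p = 0.00501). Every OTX P/R library of SLC25A43 stood above every parental one. SLC25A20, the carnitine-acylcarnitine exchanger that lets long-chain fatty acids into the matrix, was at 16.0, 15.6 and 15.2 in the OTX P/R libraries, against 16.6, 17.7 and 16.6 in the parental libraries, lower in every OTX P/R library and not past the test (adjusted p = 0.142). SLC25A46, an outer membrane protein of mitochondrial fission, was at 7.44, 8.87 and 7.46 in OTX P/R cells and 9.26, 7.77 and 9.79 in parental cells and did not pass (log2 fold change -0.15). SLC25A35, of unknown substrate, was at 3.36, 2.96 and 2.82 in OTX P/R cells and 2.48, 3.33 and 2.63 in parental cells and did not pass either (log2 fold change 0.09).

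**Figure D2:**
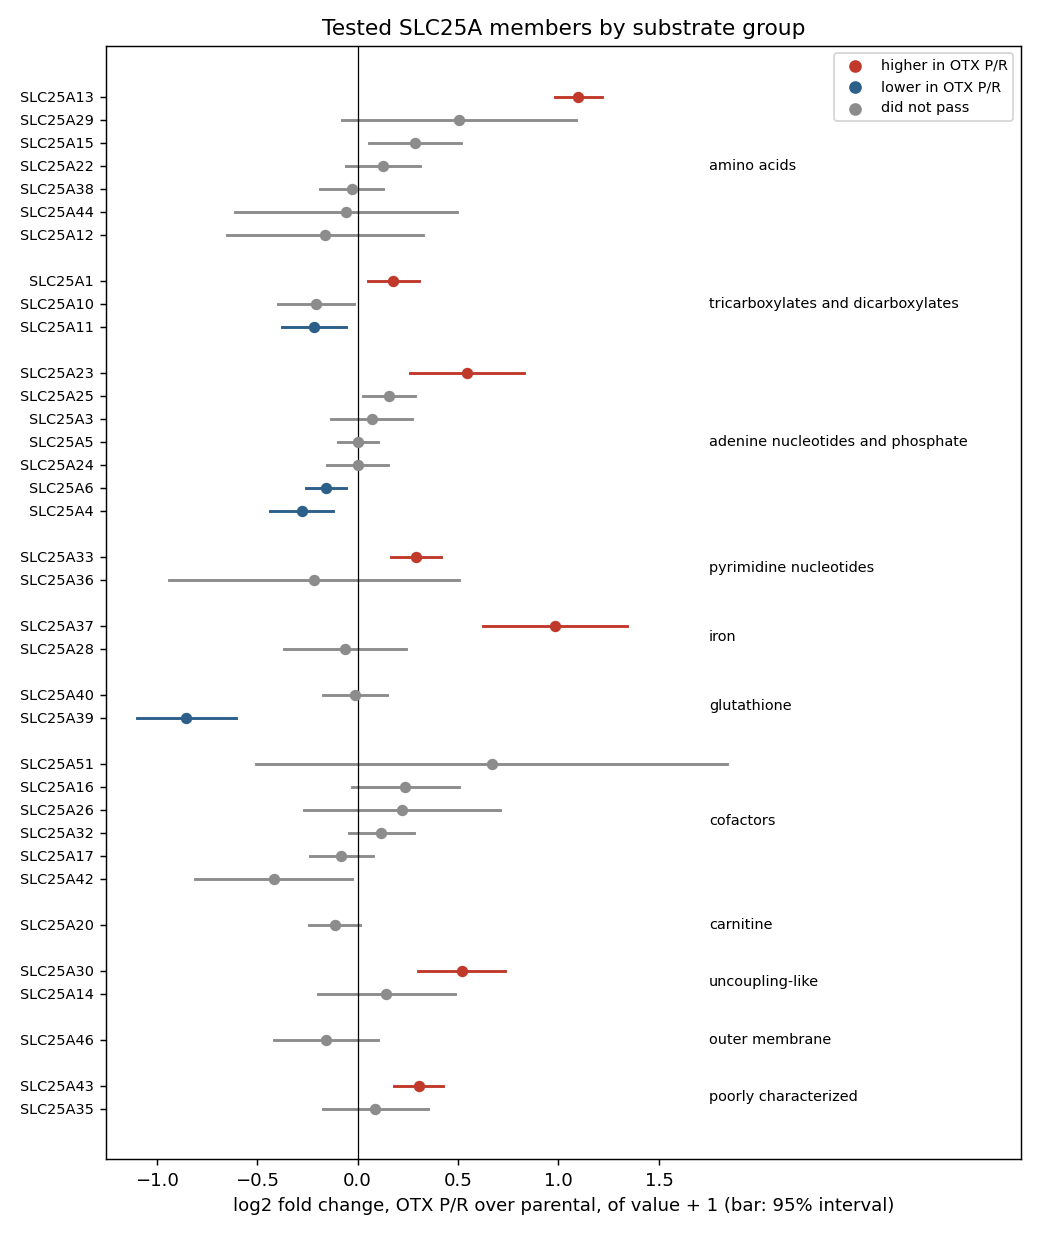
Log2 fold change of value + 1, OTX P/R over parental, of tested SLC25A members with its 95% interval, grouped by substrate; red and blue mark members that passed upward or downward. Most groups hold both called members and members whose interval spans 0, and the cofactor carriers hold no called member.

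The 12 members with a mean under 1 were not tested. SLC25A53 was the highest of them, at 0.622, 1.15 and 0.575 in OTX P/R cells and 1.21, 0.353 and 0.769 in parental cells. SLC25A45 was at 1.05, 0.493 and 0.638 in OTX P/R cells and 0.459, 0.450 and 0.416 in parental cells, the OTX P/R libraries above the parental ones at a low level. SLC25A34 stayed between 0.117 and 0.314 in all libraries, and SLC25A2, SLC25A18, SLC25A21, SLC25A27, SLC25A31, SLC25A41, SLC25A47, SLC25A48 and SLC25A52 were at 0.127 or less.

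Within pairs of related carriers, the ratio of their abundances was set side by side. The 6 pairs were compared with an exact permutation test of the log2 ratio, two-sided, which with 3 libraries against 3 cannot give a p under 0.1. The ratio of SLC25A37 to SLC25A28 was 4.16, 5.70 and 7.84 in the OTX P/R libraries, against 2.75, 2.48 and 2.92 in the parental libraries, a difference of 1.05 ± 0.26 SE on the log2 scale. The ratio of SLC25A13 to SLC25A12 was 5.56, 3.00 and 3.32 in the OTX P/R libraries, against 1.43, 1.58 and 1.46 in the parental libraries, a difference of 1.26 ± 0.24 SE. SLC25A39 stood above SLC25A40 by ratios of 13.6, 11.9 and 13.2 in the OTX P/R libraries, against 23.7, 24.4 and 21.6 in the parental libraries, a difference of -0.84 ± 0.08 SE. In each of these pairs the groups had no overlap. The same held for SLC25A23 over SLC25A24, with a difference of 0.55 ± 0.13 SE, and for SLC25A4 over SLC25A5, with -0.28 ± 0.05 SE. These 5 pairs reached the smallest possible exact p of 0.1 (0.12 adjusted over the 6 pairs), while SLC25A33 over SLC25A36 overlapped (exact permutation p = 0.3). The pairs were chosen with their levels known, and the design cannot take any of them past 0.05. Each pair set a called carrier against one that did not pass, so the ratios are no separate support for those calls.

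**Figure D3:**
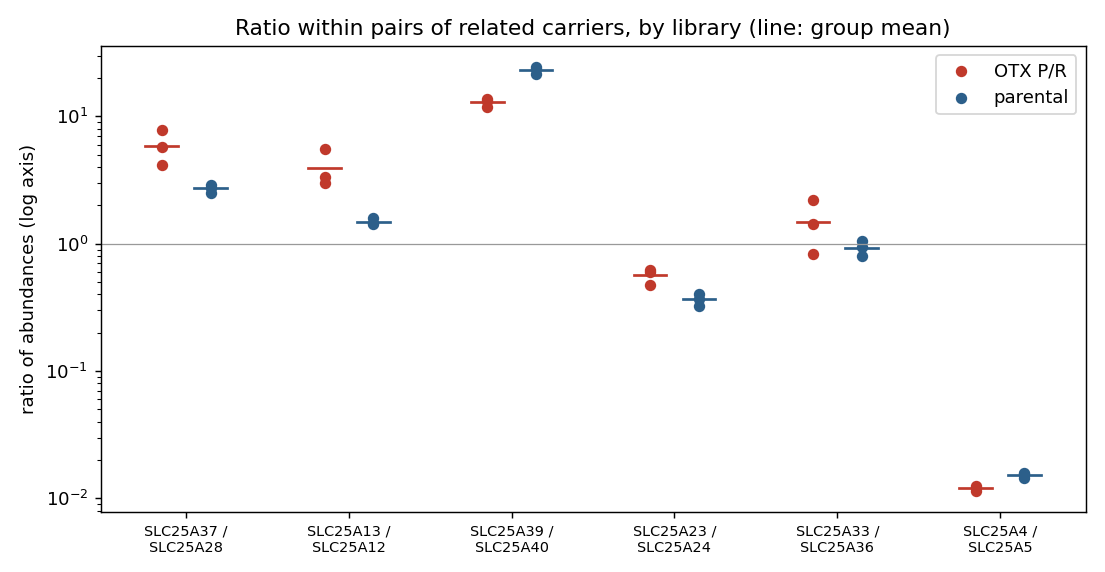
Ratio of abundances, on a log axis, within 6 pairs of related carriers in each OTX P/R library (red) and parental library (blue), with group means as lines. The ratio of SLC25A39 to SLC25A40 is lower in OTX P/R cells and that of SLC25A37 to SLC25A28 is higher, without overlap, while the SLC25A33 to SLC25A36 ratios overlap.

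The genes beside each carrier on its chromosome were described from the 10 nearest tested genes on each side, and of all tested genes 18.6% were higher and 17.5% were lower. Around SLC25A39 on chromosome 17, 14 of 20 neighbours were lower in OTX P/R cells, and their median log2 fold change was -0.71, close to the -0.85 of SLC25A39 itself. Around SLC25A13 on chromosome 7, 8 of 20 neighbours were higher and 3 were lower, with a median of 0.41 beside 1.10 for SLC25A13. SLC25A40 lies on the same chromosome, and its neighbours had a median of -0.07. SLC25A37 on chromosome 8 rose among neighbours whose median was 0.03, with 6 higher and 5 lower. The neighbours of SLC25A30 on chromosome 13 had a median of -0.13 and none was higher, against the rise of that gene. SLC25A11, on chromosome 17, fell among neighbours with a median of 0.30, 8 of 20 higher. For SLC25A23 on chromosome 19 the median was 0.11, and for SLC25A4 on chromosome 4 it was -0.19 over 14 genes. For the remaining called carriers the medians were -0.09 for SLC25A1 (19 genes), -0.06 for SLC25A43, 0.08 for SLC25A33 and 0.01 for SLC25A6 (14 genes). The carriers other than SLC25A13, SLC25A37 and SLC25A39 were added here after their values were seen. The part of chromosomal position in these changes was not tested.

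**Figure D4:**
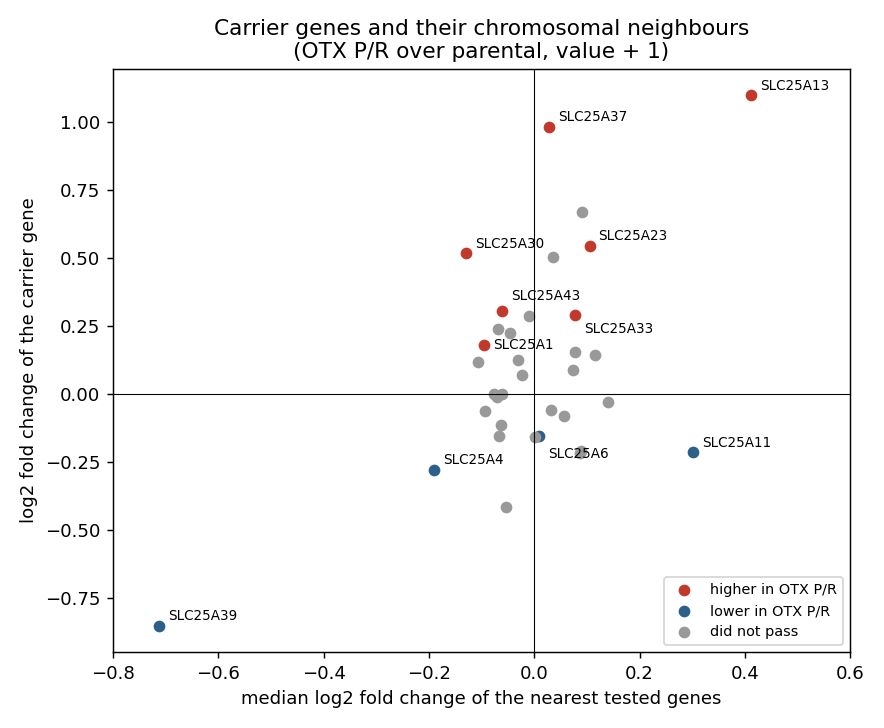
Log2 fold change of tested carrier genes (vertical axis) against the median log2 fold change of the nearest tested genes on its chromosome (horizontal axis), both OTX P/R over parental; called members are named. SLC25A39 lies at -0.71 and -0.85 and SLC25A13 at 0.41 and 1.10, while SLC25A37 is high beside neighbours at 0.03.

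Some carriers share coding sequence with other annotated genes, which bears on how far their values can be read. Whether those genes lie at the same place as the carrier or elsewhere was not checked. Of the 36 tested members, 27 had no stretch of 50 coding bases that also occurs in a transcript of another gene in GENCODE v29. The 3 members with the largest changes, SLC25A13, SLC25A37 and SLC25A39, are among these 27. The shared part was 87.5% for SLC25A10, 82.8% for SLC25A32 and 70.9% for SLC25A33, each with 1 other annotated gene, and 46.1% for SLC25A51. Reads of these genes could be divided among the genes that share the sequence, so their values are uncertain. SLC25A5, with its processed pseudogenes, shared 6.63%, and SLC25A6 shared 2.25% apart from its own second copy.

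Carrier family genes that have other symbols, and the genes that work with the carriers, were taken as lists. Of 122 listed genes 106 were tested, and 17 were higher, 30 were lower and 59 did not pass. The called share was 44.3%, beside 36.1% of all tested genes (18.6% higher and 17.5% lower). Without OTX P/R replicate 1 or 3 the lower genes were 19, while calls over all tested genes fell from 3879 to 3111 and 3143. The median log2 fold change over these genes was -0.03, beside 0.02 over all tested genes. Among family members with other symbols, the uncoupling protein UCP2 was at 70.2 ± 0.612 in OTX P/R cells, against 77.2 ± 2.07 in parental cells (SD, n = 3 each; log2 fold change -0.14 ± 0.04 SE, adjusted p = 0.0440). Its call was lost without any of the 6 libraries in turn (adjusted p up to 0.116). MTCH1, of the outer membrane, was at 85.7 ± 2.88 in OTX P/R cells, against 68.6 ± 3.62 in parental cells (log2 fold change 0.32 ± 0.05 SE, adjusted p = 0.00633), MTCH2 did not pass, and UCP1 and UCP3 were near 0.

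Enzymes around the shuttle carriers were taken first. Of 14 tested enzymes of malate, aspartate and citrate, 1 was higher, 7 were lower and 6 did not pass, with a median log2 fold change of -0.22. The called share was 57.1%, beside 36.1% of all tested genes (18.6% higher and 17.5% lower). Beside the rise of SLC25A13, the cytosolic malate dehydrogenase MDH1 was at 70.9 ± 8.10 in OTX P/R cells, against 109 ± 7.43 in parental cells (log2 fold change -0.61 ± 0.09 SE, adjusted p = 0.00396). The cytosolic aspartate aminotransferase GOT1 fell by 0.26 on the log2 scale. Of the mitochondrial forms, MDH2 fell by 0.18 on the log2 scale, a call lost without OTX P/R replicate 1 (adjusted p = 0.0502), and GOT2 did not pass (log2 fold change -0.08). ACLY, which splits the citrate that SLC25A1 exports, was at 38.2 ± 1.92 in OTX P/R cells, against 65.6 ± 5.86 in parental cells (log2 fold change -0.76 ± 0.08 SE, adjusted p = 7.77e-04). Of the 20 neighbours of ACLY on chromosome 17, 17 were lower. ME1, a cytosolic malic enzyme, fell by 1.07 on the log2 scale, and citrate synthase, CS, was higher (log2 fold change 0.27).

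Partners of the iron carriers moved both ways. Of 12 tested heme and iron genes 3 were higher, 3 were lower and 6 did not pass, a called share of 50% beside 36.1% of all tested genes. Beside the rise of SLC25A37, ALAS2, the erythroid enzyme that starts heme synthesis, was at 94.1 ± 0.762 in OTX P/R cells, against 73.7 ± 1.74 in parental cells (log2 fold change 0.35 ± 0.04 SE, adjusted p = 0.00114), and FECH, which inserts the iron, was higher (log2 fold change 0.24). The FECH call was lost without any library but OTX P/R replicate 1 (adjusted p up to 0.0919). PPOX, the enzyme before it in the pathway, was higher too (log2 fold change 0.34). ALAS1, the form of other cells, fell by 0.62 on the log2 scale. The transferrin receptor TFRC was at 144 ± 6.53 in OTX P/R cells, against 219 ± 30.2 in parental cells (log2 fold change -0.59 ± 0.10 SE, adjusted p = 0.00597).

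The cofactor and ornithine partners also moved both ways. Beside the fall of SLC25A39, glutathione synthetase, GSS, rose by 0.32 on the log2 scale and GCLM, a subunit of the enzyme that makes its precursor, fell by 0.30 on the log2 scale, a call lost without OTX P/R replicate 2 (adjusted p = 0.0527). Of 18 tested cofactor partners, these included, 4 were higher and 4 were lower, a called share of 44.4% beside 36.1% of all tested genes. NADK2, the mitochondrial NAD kinase, rose by 0.44 on the log2 scale, and NMNAT3, of NAD synthesis, was at 6.38 ± 0.124 in OTX P/R cells, against 14.1 ± 1.79 in parental cells (log2 fold change -1.03 ± 0.10 SE, adjusted p = 5.17e-04). COASY, which makes coenzyme A, fell by 0.70 on the log2 scale. Of its 20 neighbours on chromosome 17, 18 were lower, beside 17.5% of all tested genes. SLC19A1, a folate carrier of the plasma membrane, was higher (log2 fold change 0.36), a call lost without any library but OTX P/R replicates 1 and 3 (adjusted p up to 0.0974). Of 10 tested ornithine, glutamate and proline genes 1 was higher and 3 were lower, a called share of 40% beside 36.1% of all tested genes. OAT, which turns ornithine into a precursor of proline and glutamate, was at 28.1 ± 0.598 in OTX P/R cells, against 61.0 ± 1.15 in parental cells (log2 fold change -1.09 ± 0.04 SE, adjusted p = 2.30e-05), and ARG2, the mitochondrial arginase, rose by 0.42 on the log2 scale. ASS1, which makes argininosuccinate, was at 0.772 ± 0.304 in OTX P/R cells, against 2.11 ± 0.636 in parental cells (log2 fold change -0.80). That value was -0.30 with a pseudocount of 5 and -1.35 with one of 0.1, and its call was lost without OTX P/R replicate 2 or 3 or parental replicate 1 or 2 (adjusted p up to 0.0713). BCAT2, the mitochondrial aminotransferase of branched-chain amino acids, fell by 0.18 on the log2 scale, a call lost without OTX P/R replicate 2 or 3 or parental replicate 2 (adjusted p up to 0.0738).

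Of 13 tested genes of carnitine and fatty acid oxidation none was higher, 4 were lower and 9 did not pass. The called share was 30.8%, all of it lower, beside 36.1% of all tested genes called and 17.5% called lower. CPT1A, which makes the acylcarnitines that SLC25A20 carries, fell by 0.40 on the log2 scale. ETFA, which takes electrons from fatty acid oxidation, fell by 0.60 on the log2 scale, a call lost without parental replicate 3 or any of the OTX P/R libraries (adjusted p up to 0.12). ETFB, its partner subunit, fell by 0.49 on the log2 scale, a call lost without OTX P/R replicate 1 or 3 or parental replicate 1 or 3 (adjusted p up to 0.0609). Of 16 tested genes of the machinery that inserts carriers into the membrane, 2 were higher, 3 were lower and 11 did not pass, a called share of 31.2% beside 36.1% of all tested genes. AGK, a subunit of the carrier translocase, had a log2 fold change of 0.55 and was called higher. TIMM29, another subunit, listed as C19orf52, fell by 0.29 on the log2 scale, a call lost without OTX P/R replicate 1 or 3 (adjusted p up to 0.0534). TOMM40, the channel of the outer membrane translocase, was higher (log2 fold change 0.21), a call lost without OTX P/R replicate 2 or 3 (adjusted p up to 0.0753). TIMM8B, a small chaperone between the membranes, fell by 0.27 on the log2 scale. TOMM7, a small subunit of the outer translocase, fell by 0.21 on the log2 scale, a call lost without any library but parental replicate 1 (adjusted p up to 0.0994).

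Of 22 tested channels and other transporters 5 were higher, 6 were lower and 11 did not pass, a called share of 50% beside 36.1% of all tested genes. MCUR1, a regulator of the calcium uniporter, was at 18.8 ± 0.683 in OTX P/R cells, against 9.27 ± 0.312 in parental cells (SD, n = 3 each; log2 fold change 0.95 ± 0.05 SE, adjusted p = 8.13e-05). PPIF, or cyclophilin D, was higher (log2 fold change 0.46). VDAC1, the main metabolite channel of the outer membrane, was at 76.6 ± 8.23 in OTX P/R cells, against 137 ± 13.6 in parental cells (log2 fold change -0.84 ± 0.10 SE, adjusted p = 0.00154). SFXN1, a serine transporter, was at 8.69 ± 0.379 in OTX P/R cells, against 15.7 ± 0.445 in parental cells (log2 fold change -0.78 ± 0.06 SE, adjusted p = 1.70e-04). Of the neighbours, 13 of 20 were higher around MCUR1 on chromosome 6, and 19 around VDAC1 and 16 around SFXN1 of 20 each were lower on chromosome 5. Of all tested genes 18.6% were higher and 17.5% were lower. ABCB8, a transporter of the inner membrane, was at 20.0 ± 5.71 in OTX P/R cells, against 8.79 ± 3.38 in parental cells (log2 fold change 1.12 ± 0.29 SE, adjusted p = 0.0260), a call lost without OTX P/R replicate 1 or 2 or parental replicate 1 or 3 (adjusted p up to 0.0788). Of its 20 neighbours on chromosome 7, 16 were higher. SFXN3, a sideroflexin, fell by 1.01 on the log2 scale. Around other partner genes that fell, the median log2 fold change of the neighbours was nearer 0 or positive. It was -0.08 for OAT, -0.03 for ME1, 0.09 for NMNAT3, 0.06 for MDH1 and 0.26 for TFRC. For ALAS1 it was -0.0036, for SFXN3 -0.09, for ETFA 0.02 and for ASS1 0.07. The part of chromosomal position in the partner changes was not tested.

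**Figure D5:**
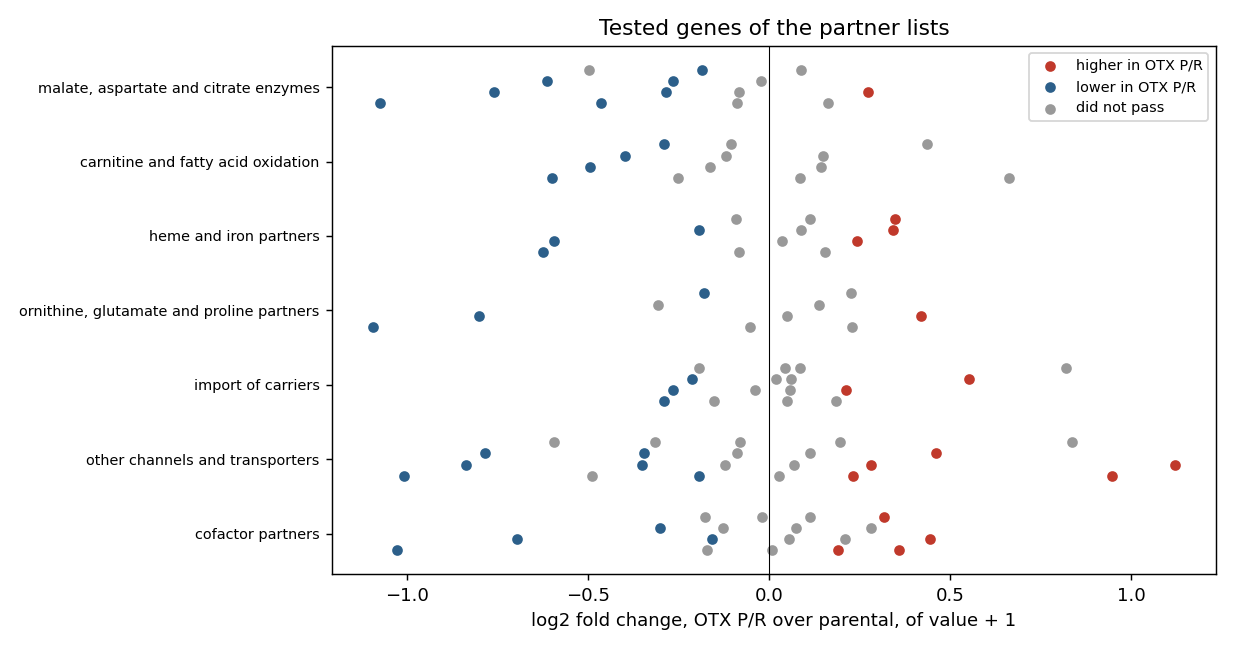
Log2 fold change of value + 1, OTX P/R over parental, of each tested gene in 7 lists of genes that work with the carriers; red and blue points passed upward or downward and grey points did not pass. The enzymes of malate, aspartate and citrate hold 7 lower genes and 1 higher gene.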

How the data were processed

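The authors deposited 1 linear signal value per gene and library, an abundance from StringTie, for 6 libraries. Per the submitters' processing notes they used Trim Galore, HISAT2 and StringTie with hg19; the sources used here give neither versions nor whether the unit is FPKM or TPM. Sorted values of 1 or more differed by at most 0.243% between libraries, so the deposited table is quantile-normalized and depth is unknown. Of 19785 rows, 6 with a missing value were left out, none of them a carrier.

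Groups came from sample titles. The 10741 genes whose mean reached 1 were tested on log2(value + 1) with limma 3.58.1 in R 4.3.3 (trended prior, two-sided, adjusted by Benjamini and Hochberg over these genes, called under 0.05); fold changes on this scale understate those of low genes. Every adjusted p is limma's, except for the carrier pairs, where exact permutation p-values were adjusted over the pairs. Errors are SDs of 3 libraries or model SEs. SLC25A6 was read from its row with the higher mean. Gene order and coding sequences came from GENCODE v29 (GRCh38), matched by identifier for 19546 rows, and promoters from RefSeq (GRCh38.p14); neither is the authors' build, so coordinates are given only for the printed promoters, on GRCh38.p14.

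Named genes were the tested carriers, by library, and from each partner list up to 3 called genes per direction with the largest change and direct partners of named carriers. 1 tested carrier and 1 partner gene, both kept in the counts, and 1 marker are not reported here. The members and lists were chosen with earlier results of these data known. Procedures were tested on simulated data. Alternatives were other pseudocounts, filters, priors, median centring, the replicate number as a block and each library left out. Tables and plots used Python 3.11.15, pandas 2.3.3, NumPy 2.4.6, SciPy 1.17.1 and Matplotlib 3.10.9.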

Additional observations from a re-analysis of the deposited data

How the results depend on the processing

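The number of higher carriers was 7 and ranged from 6 to 9 with single libraries left out. The number of lower carriers was 4, was 1 with the replicate number as a block, and ranged from 1 to 4 with single libraries left out. Among the partner lists the 30 lower genes became 19 to 26 with single libraries left out. Calls over all tested genes, in either direction, fell as well. They were 3879 in the main fit, 3159 with the block and 3029 to 3453 with single libraries left out. Of the 11 called carriers, 7 (SLC25A13, SLC25A37, SLC25A23, SLC25A30, SLC25A43, SLC25A33 and SLC25A39) passed under each of the 14 alternatives that could be run for them, and 4 (SLC25A1, SLC25A11, SLC25A4 and SLC25A6) lost the call under the block and under several others; none reversed. The replicate numbers do not pair the libraries, none of which correlated best with its own number (correlations of deviations -0.065, -0.028 and -0.00029). A pseudocount of 5 gave SLC25A23 a log2 fold change of 0.36 and SLC25A30 0.25, and a pseudocount of 0.1 gave 0.62 and 0.68. Signs reversed only for carriers that did not pass. With median centring SLC25A24 moved to 7.74e-06, and with single libraries left out the ranges were -0.288 to 0.0730 for SLC25A12, -0.0389 to 0.0307 for SLC25A24, -0.148 to 0.0309 for SLC25A28, -0.0205 to 0.121 for SLC25A3, -0.522 to 0.0771 for SLC25A36, -0.0682 to 0.0101 for SLC25A38, -0.0446 to 0.0253 for SLC25A40, -0.295 to 0.0879 for SLC25A44 and -0.0200 to 0.0170 for SLC25A5. Of 38 called partner genes recomputed, 24 passed under every alternative. Beyond libraries left out, the cause of these changes was not tested. With 3 libraries a group and unknown depth, small differences in low genes could not be resolved.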
